A study of Mus musculus with 6 samples.

Results

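The genes described here encode the proteasome: its subunits, its caps and the chaperones that assemble it. They were chosen by name, as the genes whose symbols begin with Psma, Psmb, Psmc, Psmd, Psme, Psmf or Psmg. The gene table held 57 such symbols, of which 51 are protein-coding genes and 6 are pseudogenes. A total of 43 of them, all protein-coding, had a probe on the array, out of 12362 named genes and 37939 genes and unnamed probes tested. The other 14 were not measured here. They are Psmb4, Psmc1, Psmd1, Psme4, Psmf1, Psmg4, Psma8, Psme2b and the 6 pseudogenes. Where a gene had more than 1 probe, the probe of highest mean signal was used.

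The RNA came from crypts of the middle small intestine, cut out by laser microdissection from 3 LOI(+) and 3 LOI(-) mice aged 120 days. LOI stands for loss of imprinting of Igf2, a growth factor gene that is normally silent on the maternal chromosome. In LOI(+) mice the maternal chromosome carried a deletion that removes the H19 gene together with the upstream differentially methylated region, which activates the maternal Igf2 copy. LOI(-) mice were the wild-type offspring of the same cross, between H19+/- females and wild-type C57BL/6J males. The deletion is present in every cell of the LOI(+) mice and removes H19 as well as its control region, so effects of Igf2 activation and of H19 loss cannot be told apart. The labels call LOI(+) 1, LOI(+) 3, LOI(-) 1 and LOI(-) 2 male and give no sex for LOI(+) 2 and LOI(-) 3. Each mouse was hybridised on an array of its own, in the Cy3 channel, against a pooled reference RNA from cultured mouse cell lines in the Cy5 channel. Values are log2 ratios of crypt over reference signal, called levels below. Without a dye swap, any dye effect of a probe is part of its level in both groups. The reference pool includes macrophage, B-lymphocyte and T-lymphocyte lines.

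The proteasome is the protease of the cytosol and nucleus that degrades proteins tagged with ubiquitin. Its 20S core is a barrel of alpha and beta rings whose catalytic beta subunits cut peptides, and the 19S cap, built from a base with ATPases and a lid, recognises, unfolds and feeds in the substrate. In cells exposed to interferon, and constitutively in many immune cells, the catalytic subunits Psmb5, Psmb6 and Psmb7 are replaced by Psmb8, Psmb9 and Psmb10. The resulting immunoproteasome, often with the PA28 cap made of Psme1 and Psme2, is known for producing peptides for MHC class I.

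All 43 genes gave a Cy3 signal above the 95th percentile of 314 negative control spots on 6 of 6 arrays, and 0 of them were saturated in either channel. Most probes passed such a limit, since only 1808 of 41006 were above it on fewer than 3 arrays. The count therefore does not set these genes apart. Their mean Cy3 signals per array lay between 588 and 42512 intensity units, against a median of 552 to 603 over all spots. Igf2 itself had log2 ratios of 0.07, 0.09 and 0.11 in LOI(+) crypts, against 0.16, 0.04 and 0.08 in LOI(-) crypts, a difference of -0.0024 ± 0.057 (SE; limma, adjusted p = 0.996). Igf2 therefore did not separate the labelled groups, and no probe was named H19 here. Of 15 measured markers of crypt epithelium, 12 were above and 1 below the reference in each group, with a median level of 3.34 in LOI(+) and 3.53 in LOI(-). Vil1, an actin-bundling protein of the brush border, was at 5.79 in LOI(+) and 5.85 in LOI(-), and Epcam, an epithelial adhesion molecule, at 3.06 in LOI(+) and 3.20 in LOI(-). The marker below it was Pcna, a DNA replication factor of dividing cells, at -1.41 in LOI(+) and -1.34 in LOI(-). Pan-leukocyte Ptprc was at -2.38 in LOI(+) and -2.18 in LOI(-), with Cy3 signals of 450 to 474 just over the negative controls at 439 to 449.

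Each gene was read through a 60-base probe of the array. The probes of the 3 catalytic subunits and of the 3 subunits that replace them are shown because the comparison of standard and immune proteasome rests on them. The longest run of bases in common was 5 between the probes of Psmb8 and Psmb5, 5 between those of Psmb9 and Psmb6 and 7 between those of Psmb10 and Psmb7. These runs compare probe with probe only, and cross-reading of the other gene's transcript was not tested.
Psmb8: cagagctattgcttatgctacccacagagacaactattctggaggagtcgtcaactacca
Psmb9: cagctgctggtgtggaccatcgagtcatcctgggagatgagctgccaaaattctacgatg
Psmb10: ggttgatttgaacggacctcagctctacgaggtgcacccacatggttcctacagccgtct
Psmb5: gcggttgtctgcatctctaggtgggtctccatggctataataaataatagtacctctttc
Psmb6: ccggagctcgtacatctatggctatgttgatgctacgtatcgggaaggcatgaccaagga
Psmb7: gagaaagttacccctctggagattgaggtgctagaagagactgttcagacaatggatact

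In crypts of both groups the immunoproteasome subunits stood well above the reference on the probes used, while the subunits of the constitutive core stood at or below it. Psmb9, Psmb10 and Psmb8 had levels of 2.42, 2.18 and 1.44 in LOI(+) crypts, and of 2.24, 2.09 and 1.42 in LOI(-) crypts. That is 5.35, 4.54 and 2.72 times the reference in LOI(+), and 4.72, 4.27 and 2.67 times the reference in LOI(-). The PA28 subunits Psme2 and Psme1 were also above it, with Psme2 above Psmb8, whereas Psme3, which forms a separate nuclear cap, was below the reference. Over all features, 24.5% were above the reference in LOI(+) and 25.9% in LOI(-) by the same test (limma, each group's mean against 0, adjusted p at 0.05), and 25.8% in LOI(+) and 27.9% in LOI(-) were below it. Among the 43 proteasome genes, 13 were above and 20 below the reference in LOI(+), and 10 were above and 24 below it in LOI(-). With each array centred on its median in place of loess, 9 were above and 30 below in LOI(+), and 7 were above and 33 below in LOI(-). These are ratios to a pool of cell lines, not amounts of transcript. In RNA from whole crypts, fewer cells of a type and less RNA per cell cannot be told apart.

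**Figure D1:**
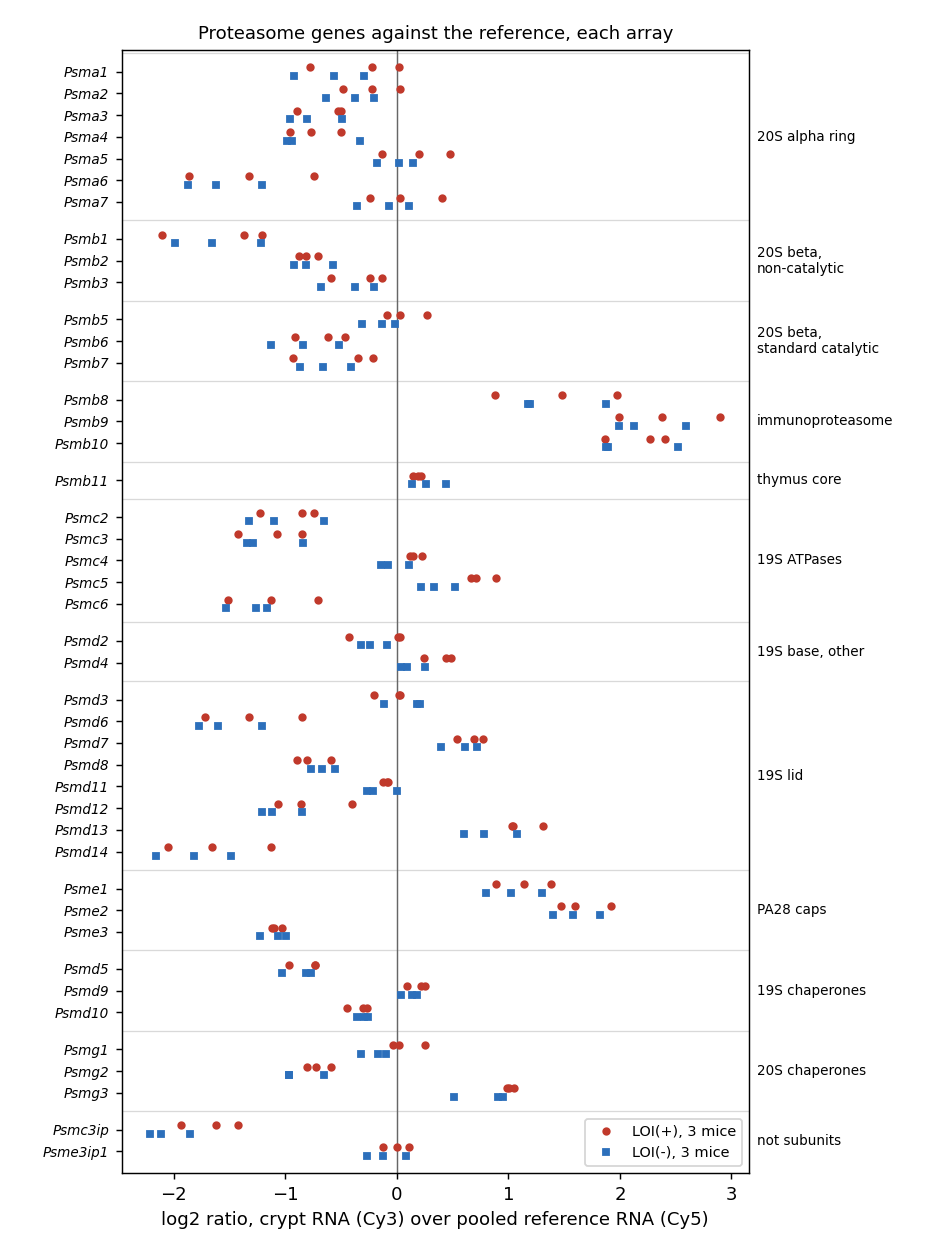
Log2 ratio of crypt over reference RNA (horizontal axis) for each of the 43 proteasome genes, grouped by role, with red circles for the 3 LOI(+) mice and blue squares for the 3 LOI(-) mice. On the probe used for each gene, Psmb8, Psmb9, Psmb10, Psme1 and Psme2 lie at 0.80 or higher on every array, to the right of every constitutive core gene.

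Psmb9, the interferon-inducible counterpart of Psmb6, had log2 ratios of 1.99, 2.90 and 2.38 in LOI(+) 1, 2 and 3, against 1.99, 2.13 and 2.59 in LOI(-) 1, 2 and 3. The groups overlapped, and the highest value was that of LOI(+) 2. Its level passed the test with an adjusted p of 2.7e-05 in LOI(+) and 4.2e-05 in LOI(-) (limma), the highest level of all proteasome genes. Psmb10, the counterpart of Psmb7, had 1.87, 2.40 and 2.27 in LOI(+), against 1.89, 1.88 and 2.52 in LOI(-). Here the highest mouse was LOI(-) 3, and the levels had adjusted p-values of 1.9e-05 in LOI(+) and 2.4e-05 in LOI(-) (limma). Psmb8, the counterpart of Psmb5 with chymotrypsin-like activity, varied most between mice. It had 0.88, 1.97 and 1.48 in LOI(+), against 1.19, 1.18 and 1.88 in LOI(-), with adjusted p-values of 0.00114 in LOI(+) and 0.00121 in LOI(-) (limma). Within the LOI(+) group alone it spanned more than 1 log2 unit.

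Psme2, the beta subunit of PA28, had 1.47, 1.92 and 1.60 in LOI(+), against 1.58, 1.40 and 1.82 in LOI(-), the third highest level of the 43 genes in LOI(-). Psme1, the alpha subunit, had 0.89, 1.38 and 1.14 in LOI(+), against 1.02, 0.80 and 1.30 in LOI(-). LOI(+) 2 and LOI(-) 3 were the highest mice of their groups for both genes, and the groups overlapped. Psme3, the subunit of the PA28 gamma cap, had -1.12, -1.03 and -1.10 in LOI(+), against -1.06, -1.23 and -0.99 in LOI(-). It was among the steadiest of the genes, with SDs of 0.050 in LOI(+) and 0.12 in LOI(-).

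Among the 30 leukocyte markers listed, 24 were measured, and the median of their levels was -0.18 in LOI(+) and -0.04 in LOI(-). Of these 24, 6 were above the reference in LOI(+) (24.5% of all features) and 12 below it (25.8%). In LOI(-), 6 were above the reference (25.9%) and 11 below it (27.9%). Their medians per array ran from -0.27 to -0.13 in LOI(+) and from -0.23 to -0.04 in LOI(-), and their summed Cy3 signals from 37627 to 54705 in LOI(+) and from 38783 to 89273 in LOI(-). Those above it in both groups included the cytotoxic granule genes Gzma, at 1.29 in LOI(+) and 1.30 in LOI(-), Nkg7, at 0.51 in LOI(+) and 0.57 in LOI(-), and Gzmb, at 0.36 in LOI(+) and 0.37 in LOI(-). The B-cell gene Ms4a1, at 1.05 in LOI(+) and 0.77 in LOI(-), was above it too. Lyz2, also above it at 3.81 in LOI(+) and 4.21 in LOI(-), is close in sequence to the Paneth cell gene Lyz1, and cross-reading of the probes was not tested. Those below the reference in both groups included the B-cell gene Cd79b, at -1.92 in LOI(+) and -1.81 in LOI(-). The T-cell gene Cd3g, at -1.39 in LOI(+) and -1.09 in LOI(-), and Ptprc were below it too. Cy3 signals were only 526 to 625 for Gzma and 561 to 618 for Gzmb, against negative controls at 439 to 449. The part of immune cells within crypts in the levels of Psmb8, Psmb9 and Psmb10 was not tested.

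Of the 14 constitutive subunits of the 20S core, 13 had a probe. By the same test 0 of them were above the reference in either group (24.5% of all features in LOI(+) and 25.9% in LOI(-)). Below it were 8 in LOI(+) (25.8%) and 10 in LOI(-) (27.9%). The median level was -0.49 in LOI(+) and -0.65 in LOI(-). In 6 of 6 arrays the lowest of Psmb8, Psmb9, Psmb10, Psme1 and Psme2 was above the highest core subunit, on the probes used. These were 0.88 and -0.09 in LOI(+) 1, 1.38 and 0.48 in LOI(+) 2, and 1.14 and 0.20 in LOI(+) 3. In LOI(-) 1, 2 and 3 they were 1.02 and 0.02, 0.80 and -0.18, and 1.30 and 0.15. The other probe of Psmb8, of lower mean signal, read only -0.02 in LOI(+) and 0.09 in LOI(-). For Psmb8 the separation from the core therefore depended on the probe.

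The standard catalytic subunits differed among themselves. Psmb5, which carries the chymotrypsin-like activity, had -0.09, 0.27 and 0.03 in LOI(+), against -0.13, -0.31 and -0.02 in LOI(-) on the brighter of its probes. Psmb6, with caspase-like activity, had -0.91, -0.46 and -0.62 in LOI(+), against -0.84, -1.13 and -0.52 in LOI(-). Psmb7, with trypsin-like activity, had -0.93, -0.21 and -0.35 in LOI(+), against -0.66, -0.87 and -0.41 in LOI(-). Psmb6 and Psmb7 were below the reference in both groups (limma, adjusted p = 0.00366 in LOI(+) and 0.00118 in LOI(-) for Psmb6, and 0.0233 in LOI(+) and 0.00724 in LOI(-) for Psmb7). Psmb5 passed the test in neither, with adjusted p-values of 0.489 in LOI(+) and 0.153 in LOI(-) (limma). This contrast depended on the setting, since Psmb5 was below the reference with median centring, at -0.38 in LOI(+) and -0.72 in LOI(-) (limma, adjusted p = 0.0187 in LOI(+) and 0.00075 in LOI(-)). It was also below it as the mean of its probes, at -0.41 in LOI(+) and -0.60 in LOI(-) (limma, adjusted p = 0.0223 in LOI(+) and 0.00386 in LOI(-)).

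The structural core subunits covered a wide range. On the probes used, Psma5, of the alpha ring, was the highest core subunit on every array but LOI(+) 1, where Psmb5 was, at 0.18 ± 0.31 in LOI(+) and 0.00 ± 0.16 in LOI(-) (SD, n = 3). Psmb1, a non-catalytic subunit of the beta ring, had -2.10, -1.21 and -1.37 in LOI(+), against -1.66, -1.99 and -1.22 in LOI(-), the lowest of the core. Psma6, of the alpha ring, had -1.86, -0.74 and -1.32 in LOI(+), against -1.62, -1.87 and -1.21 in LOI(-). The thymus-type core subunit Psmb11, which is known from cortical thymic epithelium, had 0.15, 0.19 and 0.22 in LOI(+), against 0.44, 0.14 and 0.26 in LOI(-). Its level passed the test in both groups, at an adjusted p of 0.0309 in LOI(+) and 0.00614 in LOI(-) (limma), with means of 0.19 in LOI(+) and 0.28 in LOI(-), but with median centring it passed in neither, at -0.03 in LOI(+) and 0.01 in LOI(-). The LOI(+) call was also lost without background correction, at 0.10 (limma, adjusted p = 0.0653), and with any LOI(+) mouse left out.

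The 19S cap was more mixed than the core. A total of 15 of its 17 subunits with a Psmc or Psmd symbol had a probe. Of these, 5 were above the reference in LOI(+) (24.5% of all features) and 7 below it (25.8%). In LOI(-), 3 were above it (25.9%) and 8 below it (27.9%). Adrm1 and Sem1, cap subunits without such a symbol, were counted separately, with the proteasome-associated factors. Adrm1 was at -0.32 in LOI(+) and -0.44 in LOI(-), and Sem1 at 0.14 in LOI(+) and 0.16 in LOI(-). Psmd13, a lid subunit, was the highest, with 1.03, 1.31 and 1.04 in LOI(+), against 0.60, 0.78 and 1.08 in LOI(-). In LOI(+) 1 it exceeded Psmb8 at 0.88. Psmd14, the lid enzyme that removes ubiquitin chains from the substrate, was the lowest, with -2.05, -1.13 and -1.66 in LOI(+), against -1.82, -2.16 and -1.49 in LOI(-). Among the ATPases of the base, Psmc2, Psmc3 and Psmc6 were below the reference in both groups. Psmc5 was above it in both, but at -0.12 in LOI(-) with median centring. The lid subunit Psmd7 was above the reference in both groups, at 0.66 ± 0.12 in LOI(+) and 0.58 ± 0.16 in LOI(-) (SD, n = 3), but with median centring it was at 0.15 in LOI(-) and no longer passed (limma, adjusted p = 0.0783).

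Of the assembly chaperones, 6 of 7 had a probe. Psmg3, a partner in building the alpha ring, was the highest, at 1.02 ± 0.030 in LOI(+) and 0.79 ± 0.24 in LOI(-) (SD, n = 3). Psmd5, a chaperone of the base, was at -0.81 ± 0.14 in LOI(+) and -0.87 ± 0.14 in LOI(-) (SD, n = 3). Psmc3ip carries the prefix but is a meiotic recombination factor and no subunit. It had the lowest level of the 43 genes in LOI(-), at -2.06 ± 0.19, and -1.66 ± 0.26 in LOI(+) (SD, n = 3).

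The choice of probe bears on these levels. Of the 43 genes, 15 had 2 probes, and in 14 of these the brighter probe also gave the higher level in LOI(-), by a median of 0.52 over the 15 genes. Brightness here is the mean Cy3 signal, which is also the numerator of the level. The direction of these gaps is therefore partly built in by the ranking of the probes. The widest gap in LOI(-) was that of Psmb8, whose brighter probe read 1.44 in LOI(+) and 1.42 in LOI(-), while its dimmer probe read -0.02 in LOI(+) and 0.09 in LOI(-). Psmd13 had the next widest gap in LOI(-) and the widest in LOI(+), at 1.13 in LOI(+) and 0.82 in LOI(-) on the brighter probe, and -0.48 in LOI(+) and -0.47 in LOI(-) on the dimmer. Psmd12, a lid subunit, was the exception, with its dimmer probe higher by 0.88 in LOI(-). Psmb5 read 0.07 in LOI(+) and -0.15 in LOI(-) on the brighter probe, and -0.88 in LOI(+) and -1.05 in LOI(-) on the dimmer. Psma5 read 0.18 in LOI(+) and 0.00 in LOI(-) on the brighter probe, and -0.99 in LOI(+) and -0.96 in LOI(-) on the dimmer. The chaperone gene Psmg1 read 0.08 in LOI(+) and -0.20 in LOI(-) on the brighter probe, and -0.81 in LOI(+) and -1.09 in LOI(-) on the dimmer. The levels given for Psmb8, Psmd13, Psmb5, Psma5 and Psmg1 therefore depended on the probe. Psmb9, Psmb10, Psme1 and Psme2 had 1 probe each, so this could not be checked for them. Across the 43 genes, the GC content of the probe and the LOI(-) level had Pearson's r of 0.46 and Spearman's rho of 0.39, against 0.05 and 0.06 over 37936 features. These are descriptions across genes that share the same arrays and labelling.

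**Figure D2:**
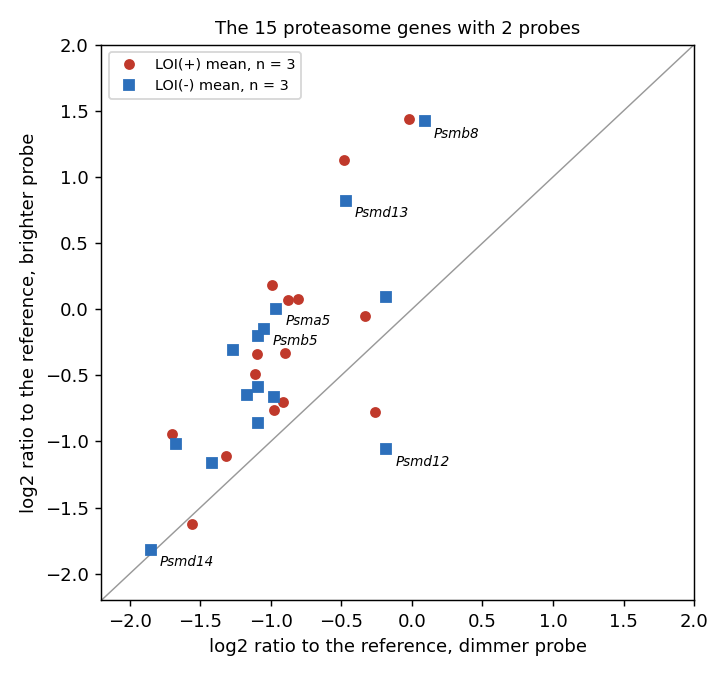
Mean log2 ratio to the reference on the brighter probe (vertical axis) against the dimmer probe (horizontal axis) for the 15 proteasome genes with 2 probes, with red circles for LOI(+), blue squares for LOI(-) and a grey line of equal values. In LOI(-), 14 of the 15 genes lie above the line, with Psmb8 farthest from it and Psmd12 the exception. Brighter means a higher mean Cy3 signal, the numerator of the ratio, so points above the line are partly built in.

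Inducible subunits were also set against the subunits they replace within each array, as the difference of the log2 ratios. A shift that both genes share on an array cancels in it. The value still holds the balance of both genes in the reference pool and the dye effect of each probe, so only its difference between groups is compared, and its sign does not measure the balance in crypts. Psmb9 minus Psmb6 was 2.90, 3.35 and 3.00 in LOI(+), against 2.83, 3.26 and 3.11 in LOI(-). Psmb10 minus Psmb7 was 2.80, 2.61 and 2.62 in LOI(+), against 2.55, 2.74 and 2.93 in LOI(-). Psmb8 minus Psmb5 was smaller, at 0.97, 1.69 and 1.44 in LOI(+), against 1.32, 1.49 and 1.90 in LOI(-). The groups overlapped in each of the 3. Psmb8 minus Psmb5 also depended on the probe, as described above for both genes.

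The PA28 caps were compared in the same way. Psme2 minus Psme3 averaged 2.75 ± 0.18 in LOI(+) and 2.69 ± 0.10 in LOI(-), and Psme1 minus Psme3 averaged 2.22 ± 0.20 in LOI(+) and 2.13 ± 0.13 in LOI(-) (SD, n = 3). LOI(+) minus LOI(-) was -0.20 for Psmb8 minus Psmb5, 0.015 for Psmb9 minus Psmb6 and -0.063 for Psmb10 minus Psmb7. It was 0.085 for Psme1 minus Psme3 and 0.053 for Psme2 minus Psme3. A two-sided exact permutation test over the 6 arrays gave p-values of 0.5 to 1 for these 5 differences, and 0.875 to 1 after Benjamini-Hochberg adjustment over the 5. With 3 mice against 3 the smallest p the test can give is 0.1, so none could have passed 0.05.

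**Figure D3:**
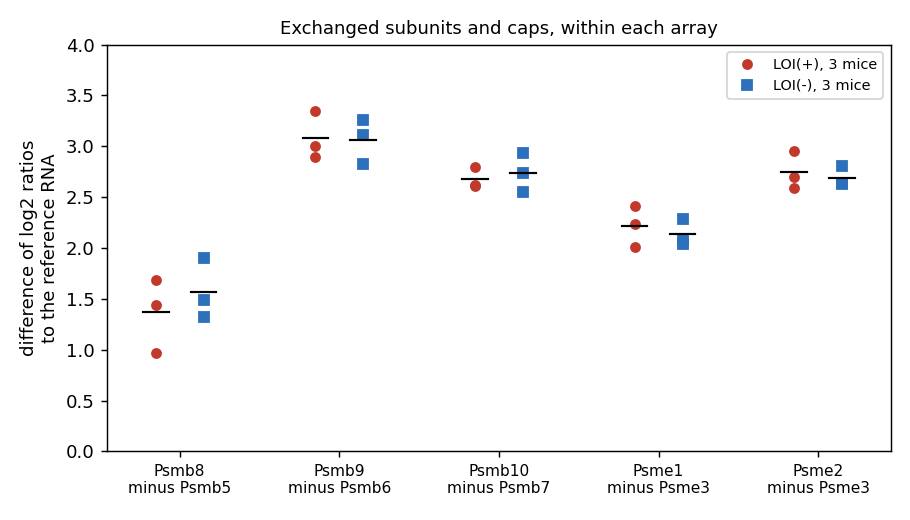
Difference between the log2 ratios of the named genes within each array (vertical axis), with red circles for the 3 LOI(+) mice, blue squares for the 3 LOI(-) mice and black bars for the group means. The groups overlap in all 5 pairs.

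Most proteasome genes followed a common order of mice within each group. LOI(+) 1 was the lowest of the LOI(+) mice in 38 of the 43 genes and LOI(+) 2 the highest in 36, while LOI(-) 2 was the lowest of the LOI(-) mice in 31 and LOI(-) 3 the highest in 41. All 4 held at once in 28 genes, or 65.1%, as they did in 6.98% of the 37648 features with a value on every array. Taken singly, the 4 held in 39.2%, 35.9%, 39.8% and 37.3% of those features. This order of mice was seen in the values first and then counted, so the shares describe these 6 arrays and carry no test. Of the 28 constitutive core and cap genes, 20 had all 4, and Psme1, Psme2, Psmb8 and Psmb10 had them as well.

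The spread between mice of a group was also larger than that of most features. The median SD within groups was 0.224 over the proteasome genes, against 0.096 over all features, and it ran from 0.075 to 0.48, with Psmb8 the highest. The features were not matched to these genes for Cy3 signal, and the part of signal in this gap was not tested. Across the 43 genes the SD had r of -0.03 with probe GC content and of -0.11 with the LOI(-) level, given as descriptions. LOI(+) 2 and LOI(-) 3, the highest mice, are also the 2 without a sex label. LOI(+) 2 had the most outlier spots, 146 against 14 to 50 on the other arrays, and the lowest mean correlation with the other arrays, 0.948 against 0.956 to 0.963. The part of sex, of RNA quality and of the array in this order of mice was not tested.

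**Figure D4:**
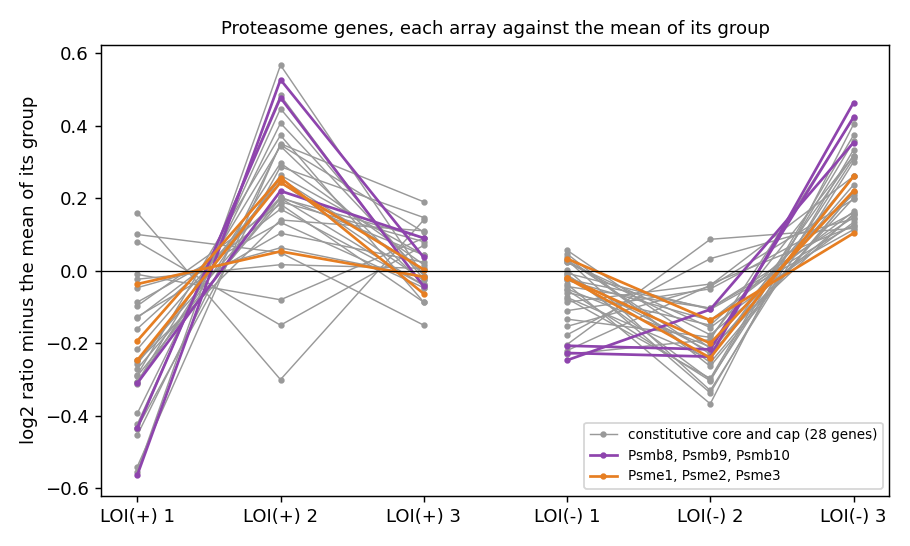
Log2 ratio minus the mean of its own group (vertical axis) on each of the 6 arrays, with grey for the 28 constitutive core and cap genes, purple for Psmb8, Psmb9 and Psmb10 and orange for Psme1, Psme2 and Psme3; lines join the values of 1 gene within a group and imply no order of mice. Most genes are lowest in LOI(+) 1, highest in LOI(+) 2 and highest in LOI(-) 3.

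Set against LOI(-), no proteasome gene passed the test in LOI(+) crypts. Most means were slightly higher in LOI(+): 38 of the 43 genes had a higher mean, against 51.3% of all features, with a median difference of 0.11 against 0.0029 over all features. By limma, with p-values adjusted by Benjamini-Hochberg over all 37939 features, 0 of the 43 were called, where 0% of all features were. At an unadjusted p under 0.05, 5 genes were higher (3.93% of all features) and 0 lower (2.22%), or 5 in either direction (6.15%). In 4 genes every LOI(+) value was above every LOI(-) value (6.45% of all features), and in 0 genes every one was below (4.99%). The count of higher means rested in part on 1 mouse. Without LOI(+) 2 it was 26, the median difference of the 28 constitutive core and cap genes was 0.023 in place of 0.17, and that of Psmb8, Psmb9 and Psmb10 was -0.055 in place of 0.088.

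**Figure D5:**
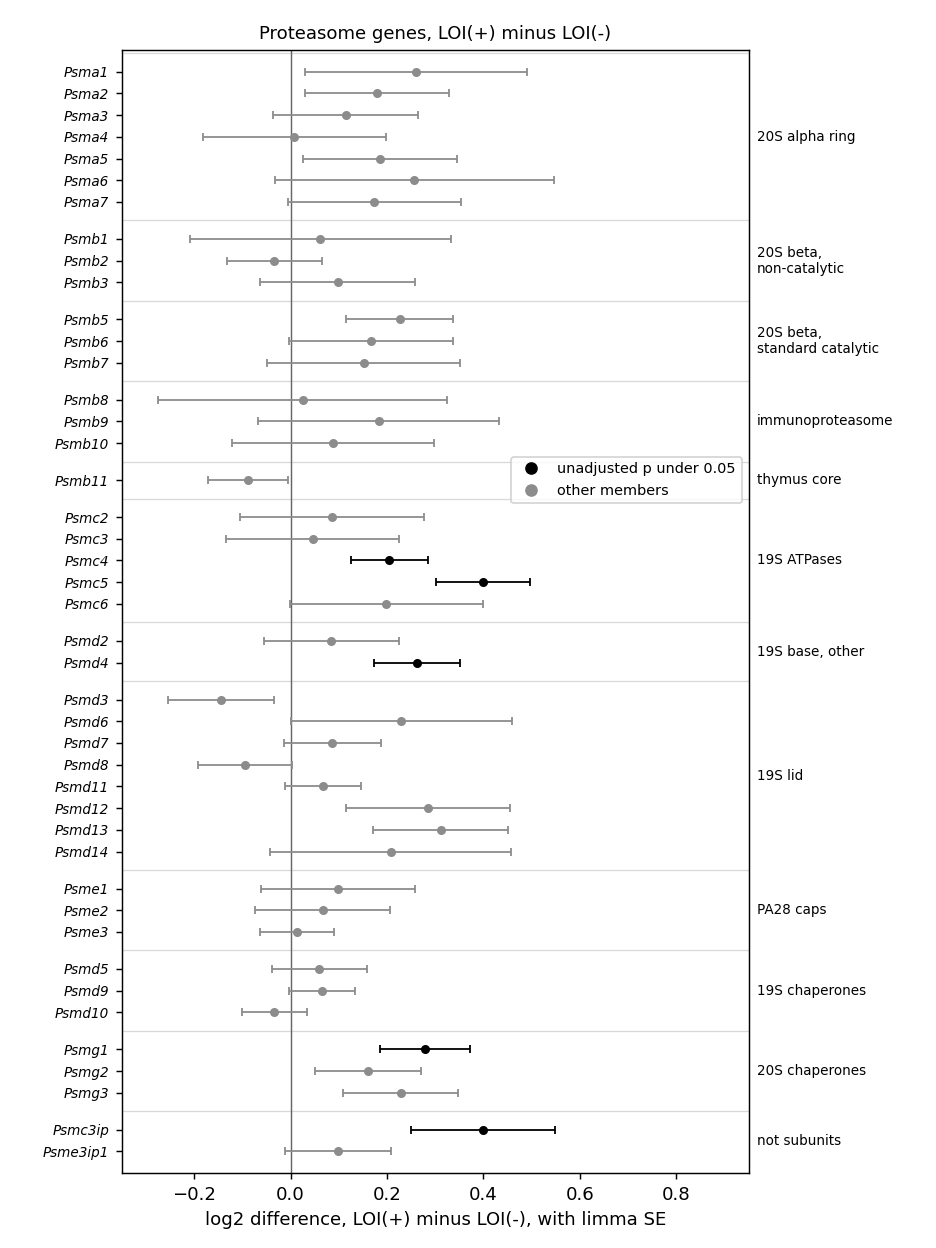
Log2 difference between LOI(+) and LOI(-) means with its limma standard error (horizontal axis) for each of the 43 proteasome genes, grouped by role; black marks the 5 genes with an unadjusted p under 0.05. A total of 38 points lie right of 0 and none passed the adjusted test.

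The 5 genes with an unadjusted p under 0.05 were Psmc5, Psmc4, Psmd4, Psmg1 and Psmc3ip. Psmc5, an ATPase of the base that threads substrates into the core, had 0.67, 0.89 and 0.71 in LOI(+), against 0.33, 0.22 and 0.52 in LOI(-). Its groups did not overlap, and the difference was 0.40 ± 0.097 (SE; limma, unadjusted p = 0.0046, adjusted p = 0.8). It stayed between 0.33 and 0.48 over all 19 alternatives, each mouse left out included. Psmc4, another ATPase of the base, had 0.12, 0.23 and 0.15 in LOI(+), against -0.08, -0.14 and 0.11 in LOI(-). Its groups lay next to each other without overlap, with a difference of 0.20 ± 0.079 (SE; limma, adjusted p = 0.803).

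Psmd4, a ubiquitin receptor of the base, had 0.49, 0.44 and 0.24 in LOI(+), against 0.04, 0.09 and 0.25 in LOI(-). LOI(+) 3 fell just below LOI(-) 3, and the difference was 0.26 ± 0.089 (SE; limma, adjusted p = 0.8). Psmg1, a chaperone of alpha ring assembly, had -0.03, 0.25 and 0.02 in LOI(+), against -0.17, -0.32 and -0.10 in LOI(-). Its groups did not overlap, with a difference of 0.28 ± 0.094 (SE; limma, adjusted p = 0.8), and its dimmer probe gave 0.28 ± 0.18. Psmc3ip had -1.93, -1.42 and -1.62 in LOI(+), against -2.21, -2.11 and -1.85 in LOI(-), a difference of 0.40 ± 0.15 (SE; limma, adjusted p = 0.803). Over the alternatives this difference ranged from 0.17 to 0.54. The other gene whose groups did not overlap was Psmg3, with 1.01, 1.05 and 0.99 in LOI(+), against 0.51, 0.95 and 0.91 in LOI(-), where LOI(-) 1 stood apart from the other two.

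The immunoproteasome subunits showed small differences with wide errors. Psmb9 differed by 0.18 ± 0.25, Psmb10 by 0.088 ± 0.21 and Psmb8 by 0.025 ± 0.30 (SE; limma, adjusted p = 0.910, 0.954 and 0.992). The 95% interval of the difference ran from -0.40 to 0.76 for Psmb9, from -0.40 to 0.58 for Psmb10 and from -0.68 to 0.73 for Psmb8. Differences within these intervals were not excluded with 3 mice per group. Psme1 differed by 0.098 ± 0.16, Psme2 by 0.067 ± 0.14 and Psme3 by 0.014 ± 0.077 (SE; limma, adjusted p = 0.927, 0.952 and 0.982). The interval of Psme3 was the narrowest of the 3, from -0.17 to 0.19.

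Of the 13 core genes measured, 12 had a higher mean in LOI(+), with a median difference of 0.17 and 0 genes at an unadjusted p under 0.05. In the alpha ring the differences ran from 0.0077 ± 0.19 for Psma4 to 0.26 ± 0.23 for Psma1 (SE; limma, adjusted p = 0.996 and 0.866). Among the non-catalytic beta subunits they ran from -0.034 ± 0.098 for Psmb2 to 0.097 ± 0.16 for Psmb3 (SE; limma, adjusted p = 0.965 and 0.926). Psmb5 differed by 0.23 ± 0.11, Psmb6 by 0.17 ± 0.17 and Psmb7 by 0.15 ± 0.20 (SE; limma, adjusted p = 0.819, 0.885 and 0.907). The thymus-type Psmb11 had a lower mean in LOI(+), by -0.088 ± 0.083 (SE; limma, adjusted p = 0.875).

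Of the 15 measured cap genes with a Psmc or Psmd symbol, 13 had a higher mean in LOI(+), with a median difference of 0.20. The lowest ATPase was Psmc3, at 0.046 ± 0.18 (SE; limma, adjusted p = 0.975), and Psmd2, a scaffold of the base, was at 0.084 ± 0.14 (SE; limma, adjusted p = 0.926). In the lid the differences ran from -0.14 ± 0.11 for Psmd3 to 0.31 ± 0.14 for Psmd13 (SE; limma, adjusted p = 0.844 and 0.816). Among the chaperones of the base they ran from -0.034 ± 0.068 for Psmd10 to 0.066 ± 0.069 for Psmd9, and among those of the core from 0.16 ± 0.11 for Psmg2 to the 0.28 of Psmg1 (SE; limma). Psme3ip1, which binds Psme3 and is no subunit, was at 0.098 ± 0.11 (SE; limma, adjusted p = 0.889). The genes with a lower mean in LOI(+) were Psmd3, Psmd8, Psmb2, Psmd10 and Psmb11. On the 15 genes with 2 probes, the difference had the same sign on both probes in 9.

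Most crypt epithelium markers had a lower mean in LOI(+), unlike most proteasome genes. Of 15 measured among 20 listed, 13 had a lower mean in LOI(+), with a median difference of -0.16. A lower mean was found in 18480 of all 37939 features. At an unadjusted p under 0.05 (limma), 5 of the 15 markers were lower (2.22% of all features) and 0 higher (3.93%). Their differences ran from -0.55 ± 0.23 for the keratin gene Krt8 to 0.19 ± 0.29 for the stem cell receptor Lgr5 (SE; limma, adjusted p = 0.803 and 0.920). Of the 24 leukocyte markers, 17 had a lower mean in LOI(+), with a median of -0.049, from -0.40 ± 0.19 for Lyz2 to 0.36 ± 0.078 for the chemokine Ccl5 (SE; limma, adjusted p = 0.819 and 0.8). The part of these cell types in the proteasome differences was not tested.

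The rest of the ubiquitin pathway showed no call either. Of the 6 genes of ubiquitin supply, 0 were called, and 3 of them, among them the polyubiquitin gene Ubb, were saturated in the reference channel on 6 of 6 arrays, so their ratios were not measured and no difference is given. Among 16 measured of 22 proteasome-associated receptors, deubiquitinases and factors, 12 had a higher mean in LOI(+), with a median of 0.057. The highest was Txnl1, a thioredoxin-like protein bound to the cap, at 0.43 ± 0.26 (SE; limma, adjusted p = 0.828).

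Of 8 measured genes of the unfoldase Vcp and its cofactors, 3 had a higher and 5 a lower mean, with a median of -0.062, from -0.19 ± 0.15 for Derl2 to 0.16 ± 0.061 for Ufd1, both of the pathway that clears proteins from the endoplasmic reticulum (SE; limma, adjusted p = 0.848 and 0.803). Of 11 measured genes of peptide loading and MHC class I, 4 had a higher and 7 a lower mean, with a median of -0.031. Npepps, a cytosolic aminopeptidase, had 0.03, 0.02 and 0.02 in LOI(+), against 0.42, 0.32 and 0.49 in LOI(-). Its groups were well apart, with a difference of -0.39 ± 0.061 (SE; limma, adjusted p = 0.8). Tapbpl, a peptide editor, was at 0.19 ± 0.16 (SE; limma, adjusted p = 0.859). Its levels, 1.98 in LOI(+) and 1.79 in LOI(-), were the highest of the 11. In LOI(+), 3 of the 11 were above the reference (24.5% of all features) and 3 below it (25.8%). In LOI(-), 6 were above it (25.9%) and 3 below it (27.9%).

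Among 10 measured transcription factors of proteasome genes, 5 had a higher and 5 a lower mean, with a median of 0.0013. Mafk, a small Maf partner, was the lowest at -0.22 ± 0.093, and Nfe2l2, which activates proteasome genes through the antioxidant response element, the highest at 0.21 ± 0.23 (SE; limma, adjusted p = 0.810 and 0.893). Nfe2l2 had 0.17, 1.17 and 0.74 in LOI(+), against 0.44, 0.57 and 0.46 in LOI(-), with LOI(+) 2 the highest and LOI(+) 1 the lowest mouse of all.

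RefSeq promoters of 300 bases on GRCm38.p6, which span the start of the gene, were found for 36 of the 43 genes, with 40 promoters. They were searched on both strands for 4 motifs, with overlaps between motifs allowed. The antioxidant response element core TGACNNNGC was in 5 of the 40 promoters (12.5%, against 12.4% of 32851 promoters), those of Psmb5, Psmb6, Psmc6, Psmd12 and Psmd9. CCAAT was in 15 (37.5%, against 37.4%). The core of the interferon-stimulated response element, GAAA, then any 2 bases, then GAAA, was in 4 (10.0%, against 3.44%), those of Psmb3, Psmd4, Psmd9 and Psme1. The gamma-activated site TTCNNNGAA was in 3 (7.5%, against 8.30%), those of Psmb8, Psmd2 and Psmg1. Such matches are letters in a window, not sites shown to be bound. Among the 6 promoters of Psmb8, Psmb9, Psmb10, Psme1 and Psme2, the interferon-stimulated core was in 1 and the gamma-activated site in 1. Those of Psmb9, Psmb10 and Psme2 held neither. The promoters below are examples picked for holding a motif, each of a subunit of the exchanged pairs or the PA28 cap. Each holds 1 of the 4 motifs, which stands in capitals. Psmb6, with the antioxidant response element core, and Psmb9, with CCAAT, are not shown. Psmb8 lies at chr17:34197945-34198244 on the + strand, with the gamma-activated site beginning 97 bases before the start. Psme1 lies at chr14:55578244-55578543 on the + strand, with the interferon-stimulated element core on the opposite strand. Psmb5 lies at chr14:54617946-54618245 on the - strand, with the antioxidant response element core beginning 47 bases before the start.
Psmb8: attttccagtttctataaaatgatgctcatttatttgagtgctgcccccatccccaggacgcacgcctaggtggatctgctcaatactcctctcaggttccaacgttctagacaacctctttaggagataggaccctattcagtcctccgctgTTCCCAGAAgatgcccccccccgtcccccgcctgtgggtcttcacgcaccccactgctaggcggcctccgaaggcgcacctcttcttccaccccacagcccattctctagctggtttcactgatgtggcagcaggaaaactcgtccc
Psme1: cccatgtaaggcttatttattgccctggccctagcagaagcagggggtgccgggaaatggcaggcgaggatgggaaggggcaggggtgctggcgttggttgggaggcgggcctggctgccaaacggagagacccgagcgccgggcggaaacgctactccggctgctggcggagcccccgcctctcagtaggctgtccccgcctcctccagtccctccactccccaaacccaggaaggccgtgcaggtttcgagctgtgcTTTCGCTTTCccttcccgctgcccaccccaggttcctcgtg
Psmb5: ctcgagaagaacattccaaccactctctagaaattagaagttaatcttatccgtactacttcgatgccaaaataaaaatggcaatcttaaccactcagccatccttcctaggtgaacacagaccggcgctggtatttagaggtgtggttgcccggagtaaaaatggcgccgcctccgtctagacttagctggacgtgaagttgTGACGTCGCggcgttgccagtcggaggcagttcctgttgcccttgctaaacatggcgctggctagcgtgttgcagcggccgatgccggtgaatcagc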

How the data were processed

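Crypt RNA of 6 mice (Cy3) was set against a pooled mouse reference RNA (Cy5), per the labels. The deposited files hold the spot intensities of each channel from the scanner software (Agilent Feature Extraction, version A.7.5.1 per the file headers). The deposited table of log10 values matched log10 Cy3 minus log10 Cy5 processed intensity plus the mean log10 Cy5 (r of 0.9984 or more on each array over 41174 features, median 2.90 in each column) and served as an alternative. The authors' own tests are not given in the sources used here.

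Of 41006 probes, 15429 (37.6%) received a symbol by accession or synonym from a RefSeq table of GRCm38.p6. The files name no genome build, so genes were matched by name and probes were given no coordinates. Mean signals were background-corrected with normexp (offset 50) and normalized by loess within arrays in limma 3.58.1 (R 4.3.3), with control spots at weight 0, outlier spots left out and saturated ones kept. The log2 ratios of Cy3 over Cy5, computed from the deposited intensities, were fitted with lmFit and eBayes, two-sided, and p-values were adjusted by Benjamini-Hochberg over 37939 features (genes and unnamed probes), with a threshold of 0.05. Log2 differences had a median SE of 0.077, a precision set by 3 arrays per group. The fitting procedure was also tested on data simulated from the means and spreads of the real genes, with known changes added. Each gene was drawn on its own there, and recovery of changes as small as those of the proteasome genes is not given. Each array holds 1 animal, per the labels.

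The genes, lists and tests were chosen with earlier results of these data known. Named with values are Psmb5 to Psmb10 and Psme1 to Psme3, the highest and lowest difference of each other class and of each of 7 lists, all genes at an unadjusted p under 0.05, and the 3 highest and 3 lowest levels. Some genes that this rule would name are not reported here. A few further genes were named after their values were seen: Psma5, Psma6, Psmd5, Psmd7, Psmd12, Psmg3, Epcam, Vil1, Pcna, Ptprc, Gzma, Gzmb, Nkg7, Ms4a1 and the genes in counts of 5 or fewer. So were Cd79b, Cd3g, Adrm1 and Sem1. Same-numbered mice of the groups deviated from their group means with correlations of -0.088, -0.248 and 0.353, so the numbers were not taken to pair them. The LOI(-) images were extracted before the LOI(+) images, and this order cannot be told apart from the group. Alternatives covered background correction, normalization, processed signals, the deposited table, Cy3 alone, probe rule, filters on dim and saturated probes, model, replicate block, labelled males and each mouse left out.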

Additional observations from a re-analysis of the deposited data

How the results depend on the processing

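Over 19 alternatives 0 proteasome genes passed the adjusted test between LOI(+) and LOI(-), with 1 to 10 at an unadjusted p under 0.05 and higher. The count of genes with a higher mean in LOI(+) was 34 to 39 of 43 over the settings that keep all mice or the labelled males, and 26 to 39 with each mouse left out. The 5 genes higher at an unadjusted p under 0.05 became 3 with the replicate block, 1 without moderation and 8 with labelled males only, and 2 to 10 with each mouse left out (2 without LOI(+) 2, LOI(-) 1 or LOI(-) 2, 3 without LOI(+) 3, and 10 without LOI(+) 1). With the replicate block, the count of higher means was 38 and 0 genes passed the adjusted test. Levels were not recomputed with the block. The median level of Psmb8, Psmb9 and Psmb10 was 1.7 in LOI(+) and 1.6 in LOI(-) without background correction, and 1.8 in LOI(+) and 1.7 in LOI(-) with median centring, against 2.2 in LOI(+) and 2.1 in LOI(-) as reported. That of the constitutive core and cap genes was -0.82 in LOI(+) and -0.99 in LOI(-) with median centring, against -0.41 in LOI(+) and -0.62 in LOI(-) as reported. Median centring also turned the sign of these levels: in LOI(+), Psmd9 -0.06, Psmc4 -0.29, Psmd4 -0.07, Psma7 -0.38, Psmg1 -0.36, Psmb5 -0.38, Psma5 -0.27 and Psmb11 -0.03, and in LOI(-), Psmd9 -0.14, Psmc5 -0.12, Psmd4 -0.43 and Psmd3 -0.29. The mean of all probes did so in LOI(+) for Psma5 at -0.40, Psmg1 at -0.37 and Psmb5 at -0.41, and in LOI(-) for Psmd3 at -0.04. The LOI(+) minus LOI(-) difference of Psmb10 minus Psmb7 was 0.015 without background correction, and that of Psmb9 minus Psmb6 was -0.037 with median centring. With each mouse left out these ran from -0.16 to 0.03 and from -0.12 to 0.11, Psme1 minus Psme3 from -0.0097 to 0.19 and Psme2 minus Psme3 from -0.047 to 0.13. The cause of these changes was not tested. Of 817 single-gene differences under the alternatives, 47 changed sign, with no call on either side.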
